A study of Mus musculus with 9 samples.

Results

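Reactive glia are astrocytes and Müller glia that change their gene expression after injury to the nervous system. In the retina, Müller glia span all layers and astrocytes lie along the nerve fibers, and both respond to damage of the optic nerve with more intermediate filament proteins, such as GFAP and vimentin, and with secreted proteins of inflammation and matrix turnover. The genes described here were 10 genes named by symbol as raised in reactive astrocytes and Müller glia: Vim, Nes, Serpina3n, Lcn2, A2m, Timp1, Cd44, S100a6, Tgfb2 and Cyp1b1. The rows of the expression table with these symbols were taken, which gave 9 of the 10 genes among 15228 genes, and Timp1 was not analysed here. Of the 9, 6 had a mean of at least 0.5 RPKM over all libraries and entered the main test.

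The RNA came from cells sorted as retinal ganglion cells (RGCs), the neurons whose axons form the optic nerve, of wild-type (WT) C57BL/6J mice of both sexes. The 3 groups were the normal intact retina (Ctrl), the retina on day 3 after optic nerve crush (ONC) with intraocular PBS as the vehicle, and the retina on day 3 after ONC with intraocular TPEN, a membrane-permeable zinc chelator given right after the crush. Ctrl had no crush and the sources used here name no injection for it, so ONC/Ctrl holds the crush and the PBS injection together. Each group had 3 libraries, and whether they came from separate mice is not stated, so the p-values measure only the spread between these libraries, which may be technical. Levels are in RPKM, reads normalised to exon length and to the reads of the library, and the libraries held 19946993 to 23109754 reads. The sort took Thy1-positive cells without 3 other surface markers, but the most abundant of the marker genes examined was Gnat1, the transducin gene of rods, with a mean of 10641 RPKM, whereas Rbpms, a defining RGC marker, lay between 0.246 and 0.688 RPKM. RGC markers ranged widely, and Nefl, a neurofilament gene and the highest of them, lay between 193 and 271 RPKM. The 10 RGC markers in the table had a summed level of 364 to 374 RPKM in Ctrl. All 10 Müller glia markers examined were in the table, with a summed level of 609 to 631 RPKM in Ctrl. The libraries are therefore called here by the sort and not by 1 cell type. In such bulk samples, fewer cells of a type and less RNA per cell cannot be told apart.

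Of the 9 genes, 8 were higher in every ONC library than in every Ctrl library, which 21.3% of all 15228 genes were, and Cyp1b1 was the exception. The largest differences were those of Nes and Serpina3n, with mean levels 7.68 times and 10.4 times those of Ctrl. In the TPEN libraries, 7 of the 9 lay above every Ctrl library, against 19.0% of all genes, and 3 (Vim, Nes and Lcn2) lay below every ONC library, against 15.6% of all genes. Serpina3n, A2m, Cd44, Tgfb2 and S100a6 overlapped between TPEN and ONC. Lcn2 alone of the 9 lay below Ctrl in every TPEN library, which 12.4% of all genes did. Among the 6 genes of the main test, 5 were upregulated in ONC/Ctrl (limma adjusted p below 0.05 and a change of 1.5-fold or more) and 0 were downregulated, where 4.58% of all 13566 genes tested were upregulated and 0.752% downregulated. At an unadjusted p below 0.05 all 6 were higher and 0 lower there, for which the share over all genes is not given here. Voom on the recovered reads, a limma fit that weights by depth, gave 5 and 0, where 659 and 129 of the 13566 genes were called. In TPEN/ONC, 0 of the 6 were upregulated and 0 downregulated by this rule, where 0.818% and 1.21% of all genes were. At an unadjusted p below 0.05 in limma, 2 of the 6 (Vim and Nes) were lower in TPEN than in ONC and 0 were higher, against 12.3% and 9.63% of all genes. There voom called 0 of the 6 in either direction, where 151 of the 13566 genes were upregulated and 219 downregulated. In TPEN/Ctrl, 5 of the 6 were upregulated and 0 downregulated, where 3.45% and 0.457% of all genes were. Serpina3n, Cd44 and S100a6 passed the limit on the mean only through the crushed retinas, so these counts describe the genes and support nothing further.

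**Figure D1:**
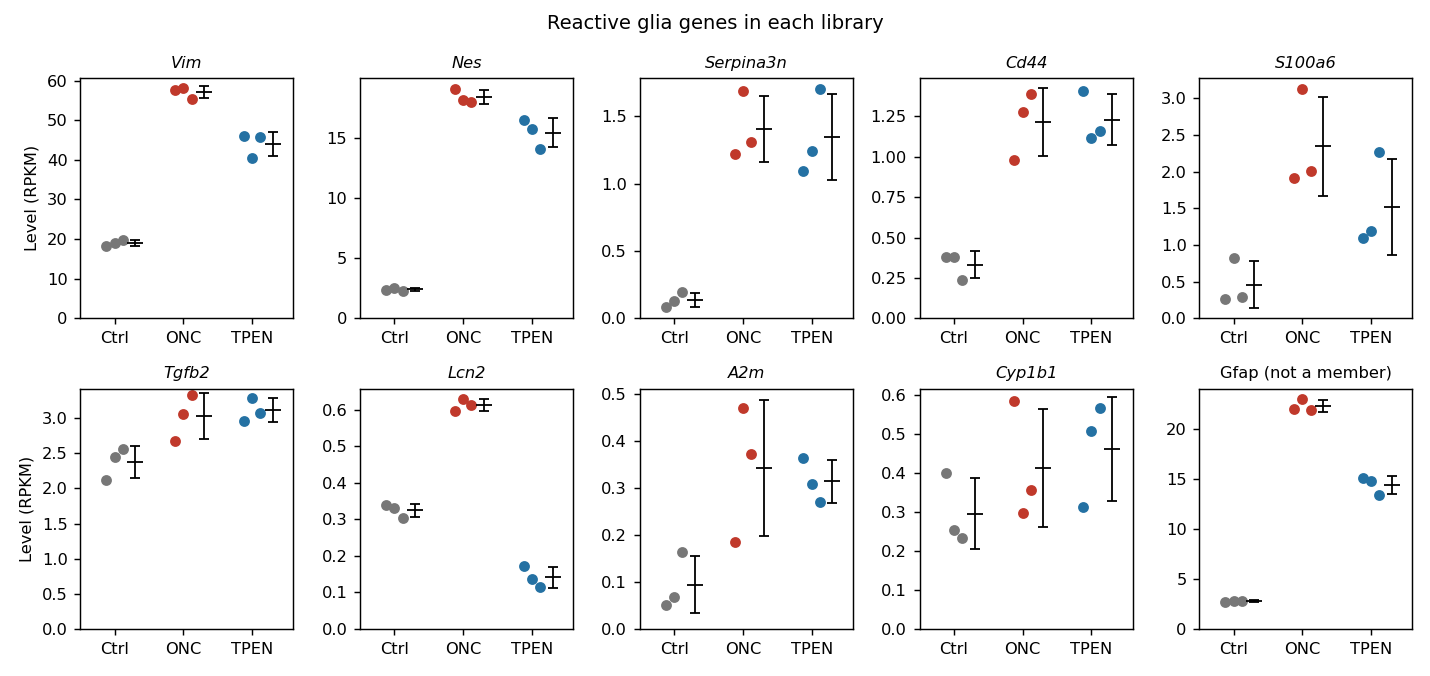
Levels of the 9 reactive glia genes and of Gfap in RPKM (y axis, from 0, with a scale of its own in each panel) in the 3 libraries of Ctrl, ONC and TPEN (points), with the mean and SD of each group (bars). In 8 of the 9 panels of reactive glia genes all ONC points lie above all Ctrl points, and only in the Lcn2 panel do all TPEN points lie below the Ctrl points.

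Regulatory sequence just upstream of the genes was read from RefSeq (GRCm38.p6), where 9 of the 10 genes matched and A2m did not. The 4 windows below are the 250 bases before the RefSeq start, 5′ to 3′ on the strand of the gene. They are shown for Nes, Serpina3n and Cd44, which rose after ONC, and for Tgfb2, which did not pass the test there. Capitals mark the letters of a TATA motif (TATAAA).
Nes (chr3:87970843-87971092, plus strand): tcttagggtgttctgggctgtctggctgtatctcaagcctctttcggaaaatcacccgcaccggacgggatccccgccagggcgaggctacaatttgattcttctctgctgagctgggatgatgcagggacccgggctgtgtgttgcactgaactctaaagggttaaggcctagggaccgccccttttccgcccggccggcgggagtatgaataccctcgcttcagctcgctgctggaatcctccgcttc
Serpina3n (chr12:104406458-104406707, plus strand): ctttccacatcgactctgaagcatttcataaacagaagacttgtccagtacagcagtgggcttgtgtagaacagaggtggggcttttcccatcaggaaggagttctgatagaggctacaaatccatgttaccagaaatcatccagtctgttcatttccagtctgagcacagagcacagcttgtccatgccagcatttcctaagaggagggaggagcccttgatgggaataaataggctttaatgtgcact
Cd44 (chr2:102901666-102901915, minus strand): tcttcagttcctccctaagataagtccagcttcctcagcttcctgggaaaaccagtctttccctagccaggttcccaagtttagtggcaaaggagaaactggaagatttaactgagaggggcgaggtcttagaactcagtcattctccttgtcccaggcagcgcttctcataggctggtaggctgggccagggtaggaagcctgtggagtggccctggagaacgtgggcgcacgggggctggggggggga
Tgfb2 (chr1:186705990-186706239, minus strand): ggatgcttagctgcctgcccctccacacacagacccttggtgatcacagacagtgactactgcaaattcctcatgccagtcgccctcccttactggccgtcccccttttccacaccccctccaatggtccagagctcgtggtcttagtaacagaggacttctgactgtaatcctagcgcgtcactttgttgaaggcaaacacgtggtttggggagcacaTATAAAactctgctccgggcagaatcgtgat
Part of the Tgfb2 window overlaps an exon of Gm29491, an antisense gene on the other strand. Motifs were searched on both strands in the same window of 32851 promoters. The AP-1 motif TGANTCA was in 0 of the 9 windows, against 6.75% of all promoters. The STAT motif TTCCNGGAA was in 0 of the 9, against 0.913%, and the looser form TTCNNNGAA, which overlaps it, was in 0 of the 9, against 7.02%. The NF-kB consensus was in 1 of the 9 (Vim), against 3.90%, at position -223 from the RefSeq start, a position inside an exon of another annotated Vim transcript. TATAAA was in 2 of the 9 (Vim at -32 and Tgfb2 at -31), against 12.4%. These matches describe letters in a short window and are not sites shown to be bound.

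The intermediate filament genes were the most abundant of the group. Vim encodes vimentin, the filament protein of Müller glia, and lies on chromosome 2 (13573927 to 13582826, GRCm38, plus strand). Vim had 18.1, 19.1 and 19.6 RPKM in Ctrl, 57.8, 58.1 and 55.4 RPKM in ONC, and 45.9, 40.5 and 45.7 RPKM in TPEN. The 3 groups did not overlap, in the order Ctrl, TPEN, ONC. The log2 fold change of Vim, here and in what follows on the scale of RPKM + 0.1, was 1.59 in ONC/Ctrl (standard error, SE, 0.053; limma adjusted p = 4.4e-08) and -0.38 in TPEN/ONC (limma adjusted p = 0.00306). Vim was therefore lower with TPEN by less than the 1.5-fold of the call, with a mean of 44.0 ± 3.10 RPKM against 57.1 ± 1.46 RPKM in ONC (SD, n = 3). In TPEN/Ctrl its log2 fold change was 1.21 (limma adjusted p = 6.1e-07).

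Nes encodes nestin, a filament protein of neural progenitors that is made again by reactive glia, and lies on chromosome 3 (87971078 to 87980451, plus strand). Nes had 2.37, 2.56 and 2.29 RPKM in Ctrl, 19.2, 18.2 and 18.0 RPKM in ONC, and 16.5, 15.8 and 14.1 RPKM in TPEN. As for Vim, the 3 groups of libraries were apart in the order Ctrl, TPEN, ONC. The log2 fold change of Nes was 2.89 in ONC/Ctrl (SE 0.068, limma adjusted p = 4.9e-09) and 2.64 in TPEN/Ctrl (limma adjusted p = 2.0e-08). In TPEN/ONC it was -0.25, which did not pass the test (limma adjusted p = 0.0536) although every TPEN library lay below every ONC library. It passed in voom on the recovered reads (limma adjusted p = 3.9e-04).

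Gfap, the filament gene most used as a mark of reactive glia, is not one of the 10 genes and stands beside them as a reference. Gfap had 2.73, 2.83 and 2.80 RPKM in Ctrl, 22.0, 22.9 and 21.8 RPKM in ONC, and 15.1, 14.8 and 13.4 RPKM in TPEN. Its groups were in the order of those of Vim and Nes. Its log2 fold change was 2.95 in ONC/Ctrl (limma adjusted p = 1.6e-09) and -0.62 in TPEN/ONC (limma adjusted p = 1.6e-04). The share of the rise over Ctrl that each TPEN library kept, with the mean of ONC as 100%, was 59.7% ± 4.55 for Gfap, 65.8% ± 8.13 for Vim and 81.5% ± 7.61 for Nes (SD, n = 3 TPEN libraries). These shares use the same ONC and Ctrl means for every library, so their SDs hold the spread of TPEN alone. Of 5 filament genes and partners tested beside Vim and Nes, 2 rose in ONC/Ctrl, Gfap and Lmna, and 0 fell. Lmna, the gene of the nuclear lamins A and C, had a log2 fold change of 0.68 (limma adjusted p = 0.0391) and is named after its values were seen.

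The 2 secreted protease inhibitors had few reads in Ctrl. Serpina3n encodes a serpin that inhibits serine proteases and is a common marker of reactive astrocytes, and lies on chromosome 12 (104406729 to 104414329, plus strand). Serpina3n had 0.0865, 0.126 and 0.193 RPKM in Ctrl, which were 4, 6 and 8 reads. It had 1.22, 1.69 and 1.31 RPKM in ONC and 1.09, 1.24 and 1.70 RPKM in TPEN. Both crushed groups lay above Ctrl and overlapped with each other. The log2 fold change of Serpina3n was 2.69 in ONC/Ctrl (SE 0.22, limma adjusted p = 2.5e-05) and 2.62 in TPEN/Ctrl (limma adjusted p = 5.3e-05). In TPEN/ONC it was -0.07, with a 95% interval of -0.57 to 0.43 (limma adjusted p = 0.898), and it was 0.06 without ONC replicate 2 or without TPEN replicate 1. Serpina3n belongs to a cluster of near-copies, and reads shared with these could not be separated here.

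A2m encodes alpha-2-macroglobulin, which traps proteases of several classes, and lies on chromosome 6 (121635376 to 121679227, plus strand). A2m had 0.0508, 0.0678 and 0.163 RPKM in Ctrl, 0.186, 0.471 and 0.372 RPKM in ONC, and 0.363, 0.308 and 0.271 RPKM in TPEN. The Ctrl libraries held only 8, 11 and 23 reads of it, and the lowest ONC library, with 30, was near the highest of Ctrl. A2m, Lcn2 and Cyp1b1 had a mean under 0.5 RPKM, so their tests come from the fit of all 15228 genes with no limit on the mean. The log2 fold change of A2m was 1.18 in ONC/Ctrl (SE 0.29, limma adjusted p = 0.0170) and 1.13 in TPEN/Ctrl (limma adjusted p = 0.0281). The first was past the threshold in none of the fits without Ctrl replicate 1, Ctrl replicate 2, ONC replicate 2 or ONC replicate 3 (limma adjusted p = 0.0588 to 0.0644). The second was not past it without Ctrl replicate 1 or 2 or without any 1 of the TPEN libraries (limma adjusted p = 0.0571 to 0.0941), nor with a pseudocount of 1 (0.0546) or quantile normalization (0.123). With a pseudocount of 1 the rise of A2m in ONC/Ctrl was under 1.5-fold, with a log2 fold change of 0.29, and with quantile normalization it did not pass (limma adjusted p = 0.0957).

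Lcn2 had a pattern of its own among the 9 genes. It encodes lipocalin 2, a secreted protein that binds bacterial siderophores and so iron, and is among the genes most used to mark reactive astrocytes, but neutrophils also make it. Lcn2 lies on chromosome 2 (32384633 to 32388252, minus strand). Lcn2 had 0.340, 0.330 and 0.304 RPKM in Ctrl, 0.597, 0.631 and 0.614 RPKM in ONC, and 0.172, 0.137 and 0.115 RPKM in TPEN. In reads these were 20, 20 and 16 in Ctrl, 36, 38 and 37 in ONC, and 9, 8 and 6 in TPEN, so each value rests on few reads. The groups did not overlap, in the order TPEN, Ctrl, ONC, with means of 0.141 ± 0.0287, 0.325 ± 0.0187 and 0.614 ± 0.0168 RPKM (SD, n = 3). In the fit of all genes with no limit on the mean, the log2 fold change of Lcn2 was 0.75 in ONC/Ctrl (SE 0.14, limma adjusted p = 0.00460). In TPEN/ONC it was -1.57, with a 95% interval of -1.89 to -1.25 (limma adjusted p = 1.9e-04), and the mean of ONC was 4.35 times that of TPEN. In TPEN/Ctrl it was -0.82 (limma adjusted p = 0.00429), and the mean of Ctrl was 2.30 times that of TPEN. This last difference did not pass in voom on the recovered reads (limma adjusted p = 0.0613). The rise of Lcn2 in ONC/Ctrl was under 1.5-fold, and so not called, with quantile normalization (log2 fold change 0.52) and with a pseudocount of 1 (0.29). With that pseudocount its differences in TPEN/ONC (-0.50) and TPEN/Ctrl (-0.22) were under 1.5-fold as well, since 1 RPKM is above every level of Lcn2.

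With Lcn2, A2m and Cyp1b1 included, in ONC/Ctrl 7 of the 9 were upregulated and 0 downregulated, where 6.19% and 0.847% of the 15228 genes were. In TPEN/ONC, 1 of the 9 (Lcn2) was downregulated and 0 upregulated, where 1.85% and 0.992% of the genes were, and in TPEN/Ctrl 6 were upregulated and Lcn2 was downregulated, where 4.5% and 0.499% of the genes were. Whether Lcn2 moved apart from the other genes was examined through the difference of log2 levels within each library. Relative to each of the 8 others, Lcn2 was lower in every TPEN library than in every ONC library, by 0.94 to 1.72 on the log2 scale. Lcn2 was picked for this from the same values, and all 8 comparisons share its levels. These differences therefore describe the libraries and support nothing further. The exact permutation test gave a two-sided p of 0.1 for each of the 8, which is the smallest that 3 against 3 libraries can give, so it cannot reach 0.05. None of the 9 neutrophil markers listed was analysed here.

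**Figure D2:**
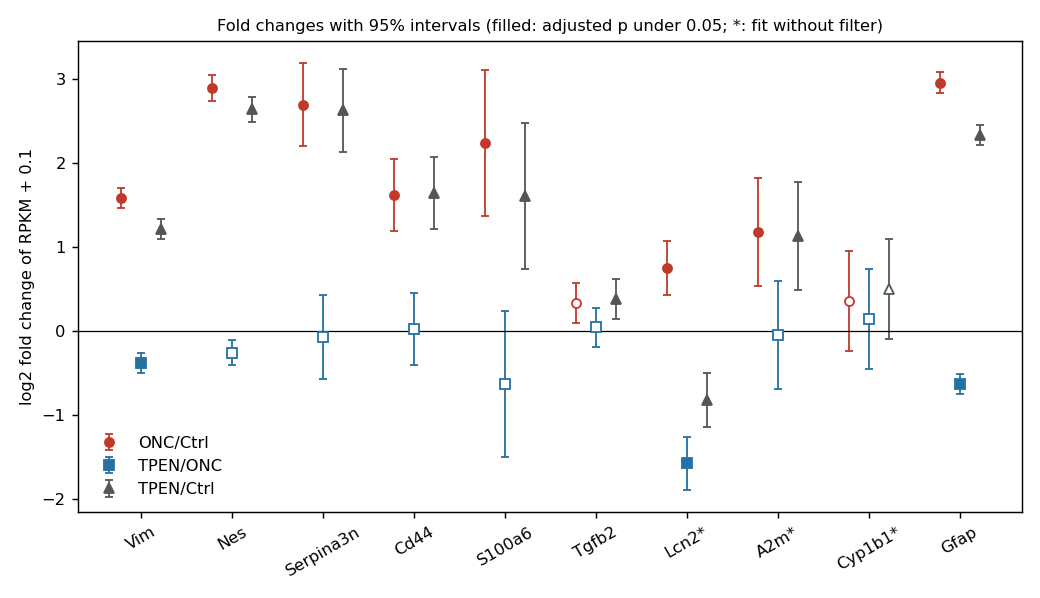
Log2 fold changes of RPKM + 0.1 (y axis) of the 9 reactive glia genes and Gfap (x axis) in ONC/Ctrl (circles), TPEN/ONC (squares) and TPEN/Ctrl (triangles), with 95% intervals (bars), filled where the limma adjusted p was under 0.05; genes with an asterisk come from the fit of all genes with no limit on the mean. TPEN/ONC is near 0 for Serpina3n, Cd44, Tgfb2 and A2m, at -0.38 for Vim and at -1.57 for Lcn2.

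Cd44 and S100a6 are genes of the cell surface and of calcium signaling. Cd44 encodes the receptor for hyaluronan, which also binds osteopontin, and lies on chromosome 2 (102811141 to 102901665, minus strand). Cd44 had 0.382, 0.377 and 0.235 RPKM in Ctrl, 0.982, 1.28 and 1.39 RPKM in ONC, and 1.41, 1.12 and 1.16 RPKM in TPEN. The TPEN libraries lay within or just above the range of ONC. Its log2 fold change was 1.62 in ONC/Ctrl (SE 0.19, limma adjusted p = 2.9e-04) and 1.64 in TPEN/Ctrl (limma adjusted p = 4.0e-04). In TPEN/ONC it was 0.02, with a 95% interval of -0.41 to 0.45 (limma adjusted p = 0.969). The share of the rise over Ctrl that TPEN libraries kept was 101% ± 17.9 for Cd44, 95.2% ± 25.0 for Serpina3n and 56.2% ± 34.7 for S100a6 (SD, n = 3).

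S100a6 encodes calcyclin, a small calcium-binding protein that also binds zinc, and lies on chromosome 3 (90612882 to 90624181, plus strand). S100a6 had 0.261, 0.823 and 0.291 RPKM in Ctrl, 1.91, 3.12 and 2.01 RPKM in ONC, and 1.10, 1.19 and 2.27 RPKM in TPEN. Its Ctrl libraries held 8, 26 and 8 reads, and 1 TPEN library lay within the range of ONC. The log2 fold change of S100a6 was 2.24 in ONC/Ctrl (SE 0.39, limma adjusted p = 0.00297). In TPEN/ONC it was -0.63, with a 95% interval of -1.50 to 0.23 (limma adjusted p = 0.388). In TPEN/Ctrl it was 1.60 (limma adjusted p = 0.0236) and did not pass without Ctrl replicate 1, Ctrl replicate 3 or TPEN replicate 3 (limma adjusted p = 0.0771 to 0.0791).

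Tgfb2 and Cyp1b1 had the smallest fold changes in ONC/Ctrl. Tgfb2 encodes a transforming growth factor beta ligand, the main isoform in the eye, and lies on chromosome 1 (186622792 to 186705989, minus strand). Tgfb2 had 2.12, 2.44 and 2.56 RPKM in Ctrl, 2.68, 3.07 and 3.33 RPKM in ONC, and 2.96, 3.30 and 3.08 RPKM in TPEN. The crushed groups lay just above Ctrl. The log2 fold change of Tgfb2 was 0.34 in ONC/Ctrl, which did not pass (limma adjusted p = 0.0533), and 0.38 in TPEN/Ctrl (limma adjusted p = 0.0419). The latter did not pass without Ctrl replicate 1, Ctrl replicate 2, ONC replicate 2 or any 1 of the TPEN libraries (limma adjusted p = 0.0622 to 0.129), nor with quantile normalization (0.0618) or a fit of only the 6 libraries compared (0.0560), and the former passed without ONC replicate 1 (limma adjusted p = 0.0339). Exons of Tgfb2 overlap those of Gm29491 on the other strand, which had a mean of 3.69 RPKM, and whether counting used the strand is not stated, so reads of Tgfb2 are uncertain.

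Cyp1b1 encodes a cytochrome P450 that oxidizes estrogens and retinoids and is a target of the aryl hydrocarbon receptor, and lies on chromosome 17 (79706953 to 79715041, minus strand). Cyp1b1 had 0.400, 0.253 and 0.233 RPKM in Ctrl, 0.585, 0.297 and 0.357 RPKM in ONC, and 0.312, 0.509 and 0.567 RPKM in TPEN. All groups overlapped. Its log2 fold change in ONC/Ctrl was 0.36 in the fit with no limit on the mean (limma adjusted p = 0.403), and with 24 to 69 reads per library and groups that overlapped no difference was detected. What limited this was not tested.

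The order of the mean levels differed between the groups. In Ctrl it was Vim, Nes, Tgfb2, S100a6, Cd44, Lcn2, Cyp1b1, Serpina3n and A2m. In ONC it was Vim, Nes, Tgfb2, S100a6, Serpina3n, Cd44, Lcn2, Cyp1b1 and A2m, and in TPEN Lcn2 came last, after Cyp1b1 and A2m. Within Ctrl, Nes (2.29 to 2.56 RPKM) and Tgfb2 (2.12 to 2.56 RPKM) were not apart, and after ONC Nes lay above Tgfb2 in every library. Among the Ctrl libraries, S100a6, Cd44, Lcn2 and Cyp1b1 overlapped, and among the TPEN libraries S100a6, Serpina3n and Cd44 did. The exact permutation test over all 280 splits into 3 groups of 3 libraries gave p = 0.00357, the smallest it can give, for Vim, Nes and Lcn2. The same exact test gave p = 0.0107 for S100a6, 0.0286 for Serpina3n and for Tgfb2, 0.0321 for Cd44, 0.0393 for A2m and 0.289 for Cyp1b1. These p-values are not adjusted.

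Other genes of reactive astrocytes were taken as lists, with 4 further pan-reactive genes tested. Of these 4, 2 rose in ONC/Ctrl, Gfap and Osmr, and 0 fell. Osmr, the receptor of oncostatin M, is named after its values were seen. Osmr had a log2 fold change of 1.62 in ONC/Ctrl (limma adjusted p = 5.3e-05) and 0.29 in TPEN/ONC, which did not pass (limma adjusted p = 0.297). Of 8 genes tested from those raised in astrocytes by lipopolysaccharide (LPS), 6 rose in ONC/Ctrl, 0 fell, and the median log2 fold change was 1.89, against 0.017 for all genes tested. In TPEN/ONC, 4 of the 8 fell, with a median of -0.65, against -0.011 for all genes tested. Examples were H2-D1, a class I MHC gene, at 6.59 to 7.91 RPKM in Ctrl, 29.2 to 30.1 RPKM in ONC and 15.3 to 15.6 RPKM in TPEN, and Psmb8, an immunoproteasome subunit, with log2 fold changes of 1.93 and -0.75. Gbp2, an interferon-induced GTPase, had log2 fold changes of 2.66 in ONC/Ctrl and -0.56 in TPEN/ONC, the latter not past the test (limma adjusted p = 0.136). Of the genes raised in astrocytes by ischemia, only 2 were tested, and both rose in ONC/Ctrl. S100a10, a partner of annexin A2, had log2 fold changes of 2.04 and 0.08 in ONC/Ctrl and TPEN/ONC. Cd14, the LPS co-receptor and a myeloid gene as well, had 3.41 and -1.53 and is named after its values were seen.

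Of 8 genes of the IL-6 family and STAT3 tested, 3 rose in ONC/Ctrl and 0 fell, and in TPEN/ONC 0 rose and 0 fell. Stat3, the transcription factor of this pathway, had 3.53 to 3.81 RPKM in Ctrl, 14.5 to 14.8 RPKM in ONC and 13.7 to 14.1 RPKM in TPEN, with a log2 fold change of 1.97 in ONC/Ctrl (limma adjusted p = 4.9e-09). Il6st, the shared receptor subunit gp130, had 1.21, and Socs3, the feedback inhibitor, had 1.92. In TPEN/ONC their log2 fold changes were -0.07 for Stat3, -0.04 for Il6st and -0.55 for Socs3, none past the test (limma adjusted p = 0.404, 0.640 and 0.0628). At an unadjusted p below 0.05 in limma, 1 of the 8 was higher and 2 were lower in TPEN/ONC, and voom called 0. Lif, under the limit on the mean, rose in ONC/Ctrl in the fit with no limit (log2 fold change 0.93, limma adjusted p = 0.00645). In TPEN/ONC it had 0.57, which did not pass (limma adjusted p = 0.107), and it is named after its values were seen.

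Of the ligands, receptors and SMADs of the TGF-beta pathway other than Tgfb2, 8 were tested, 1 rose in ONC/Ctrl and 0 fell, with a median log2 fold change of 0.096. The one was Tgfbi, a matrix protein gene induced by TGF-beta, at 0.0323 to 0.0744 RPKM in Ctrl, 4.26 to 4.55 RPKM in ONC and 0.299 to 0.571 RPKM in TPEN. Tgfbi had log2 fold changes of 4.96 in ONC/Ctrl (limma adjusted p = 2.2e-07) and -3.11 in TPEN/ONC (limma adjusted p = 2.8e-05). Genes of this list under the limit on the mean also rose in ONC/Ctrl in the fit with no limit. The log2 fold changes were 1.97 for Tgfb1, 1.89 for Tgfbr2 and 0.77 for Ltbp1 (limma adjusted p = 1.9e-04, 1.2e-04 and 0.0193). Their mean levels in Ctrl were only 0.0428, 0.0891 and 0.137 RPKM, and they are named after their values were seen. Of the metalloproteinases and their inhibitors, 4 were tested and 0 were called in either direction in ONC/Ctrl. Mmp2, a gelatinase, and Timp2, its inhibitor, were higher there by less than 1.5-fold, with log2 fold changes of 0.33 and 0.58 (limma adjusted p = 0.00588 and 4.0e-04). At an unadjusted p below 0.05 in limma, 3 of the 4 were higher and 0 were lower, and voom called 2 upregulated and 0 downregulated. In the fit with no limit on the mean, Mmp9 rose in ONC/Ctrl by 1.42 on the log2 scale (limma adjusted p = 0.00294). It fell in TPEN/ONC, with -1.84 (limma adjusted p = 0.00224), at means of 0.0907 (Ctrl), 0.410 (ONC) and 0.0406 RPKM (TPEN). Mmp19 did not pass in ONC/Ctrl there (limma adjusted p = 0.270). Both are named after their values were seen.

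Of 4 genes tested among ligands of CD44 and enzymes of hyaluronan, 2 rose in ONC/Ctrl and fell in TPEN/ONC, where Cd44 itself had a log2 fold change of 0.02. Fn1, the gene of fibronectin, had 0.359 to 0.458 RPKM in Ctrl, 3.13 to 3.38 RPKM in ONC and 0.772 to 0.981 RPKM in TPEN. Fn1 had log2 fold changes of 2.73 in ONC/Ctrl and -1.78 in TPEN/ONC. Spp1, the gene of osteopontin, had 5.03 and -1.46, but it overlaps another listed gene and its reads are uncertain. Of 7 other S100 genes tested, 5 rose in ONC/Ctrl and 0 fell, with a median log2 fold change of 1.68. S100a11 had 2.21 there and fell in TPEN/ONC by 0.91 on the log2 scale (limma adjusted p = 0.0111). S100a13 (1.98) and S100a4 (1.68) also rose in ONC/Ctrl and did not pass in TPEN/ONC, with -0.08 and -0.49. Of the genes listed as close relatives of the secreted inhibitors and of Cyp1b1, only 3 were tested. All 3 belong to the aryl hydrocarbon receptor pathway, not to the families of the inhibitors or of Cyp1b1, and 1 rose in ONC/Ctrl. Ahr, the receptor that induces Cyp1b1, rose in ONC/Ctrl by 1.50 on the log2 scale (limma adjusted p = 9.3e-09) and had 19.9 to 21.0 RPKM in ONC and 19.3 to 19.5 RPKM in TPEN.

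**Figure D3:**
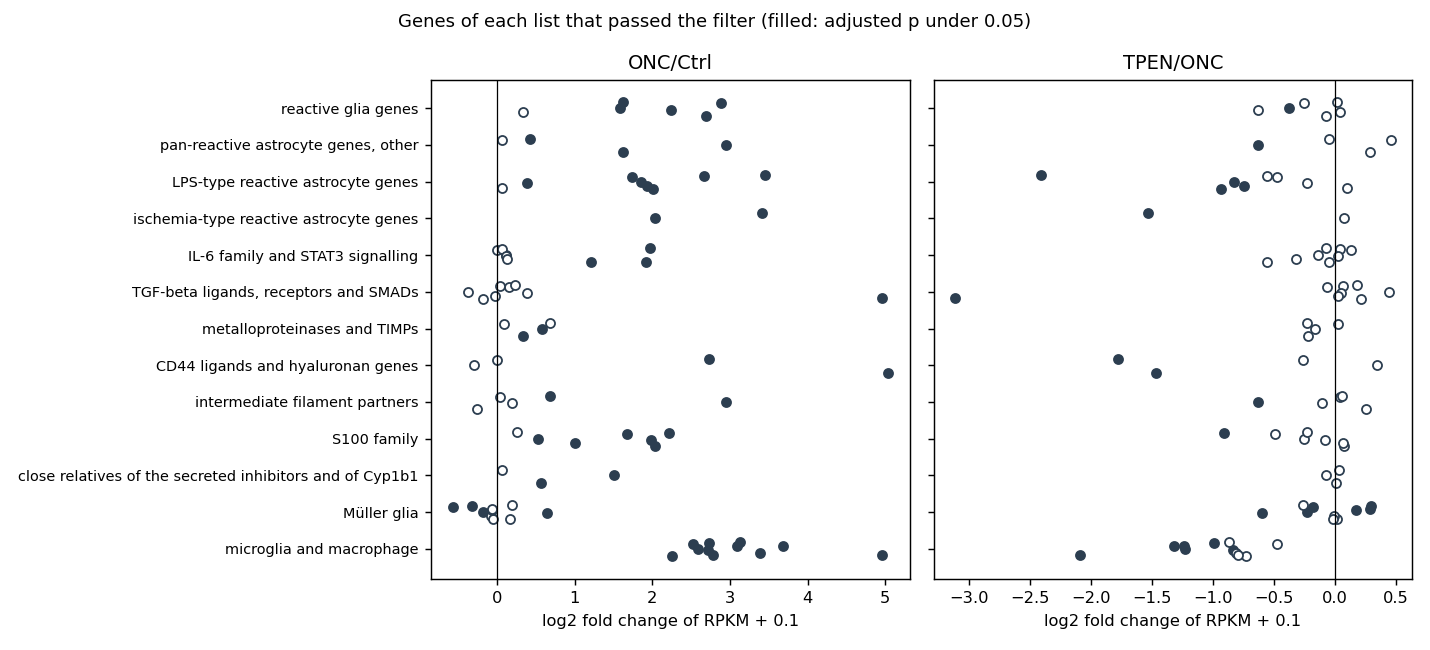
Log2 fold changes of RPKM + 0.1 (x axes) in ONC/Ctrl (left) and TPEN/ONC (right) for the tested genes of each list (y axis), filled where the limma adjusted p was under 0.05. The 6 reactive glia genes and the 7 other S100 genes are all above 0 in ONC/Ctrl, while in TPEN/ONC the lowest point is Tgfbi at -3.11.

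Of 10 Müller glia markers, 1 was upregulated in ONC/Ctrl and 0 were downregulated, and at an unadjusted p below 0.05 in limma 2 were higher and 3 lower. The upregulated one was Apoe, the apolipoprotein, the highest of them, at 168 to 174 RPKM in Ctrl, 264 to 274 RPKM in ONC and 175 to 184 RPKM in TPEN. Glul, the glutamine synthetase that clears glutamate, Rlbp1, which binds retinaldehyde, and Aqp4, a water channel, were lower in ONC/Ctrl by less than 1.5-fold, with log2 fold changes of -0.57, -0.18 and -0.32, and are named after their values were seen. The lowest marker, Kcnj10, a potassium channel of the end feet, lay at 3.33 to 3.95 RPKM in Ctrl and 4.10 to 4.65 RPKM in ONC. The summed level of the 10 markers was 609 to 631 RPKM in Ctrl, 633 to 647 RPKM in ONC and 522 to 533 RPKM in TPEN. This sum joins genes that moved apart. Mean levels in Ctrl, ONC and TPEN were 172, 268 and 178 RPKM for Apoe. They were 173, 116 and 103 RPKM for Glul and 125, 111 and 94.6 RPKM for Rlbp1. In ONC/Ctrl, 3 of the 10 markers had a log2 fold change above 0, and the median was -0.067. For the 9 reactive glia genes the summed level was 24.1 to 26.1, 82.8 to 86.9 and 64.0 to 69.9 RPKM, of which Vim made up most. Of 4 astrocyte markers tested, 2 rose in ONC/Ctrl, Gfap and Aldh1l1, and the sum of the 5 astrocyte markers in the table was 24.6 to 25.2, 45.1 to 45.6 and 35.1 to 38.5 RPKM.

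Markers of microglia and macrophages rose in ONC/Ctrl, as the 5 called reactive glia genes did, and many of them fell in TPEN/ONC. All 11 that were tested rose in ONC/Ctrl, with a median log2 fold change of 2.78. In TPEN/ONC 6 of the 11 fell, with a median of -0.87, against 0 of the 6 reactive glia genes tested, with a median of -0.16. At an unadjusted p below 0.05 in limma all 11 were lower there, against 12.3% of all genes, and voom called 10 downregulated. Markers such as Tmem119, with a mean of 0.0668 RPKM in Ctrl, passed the limit on the mean only through the crushed retinas. These counts therefore describe the genes and support nothing further. Lyz2, the lysozyme gene and the highest of them, had 0.410 to 0.629 RPKM in Ctrl, 18.4 to 20.6 RPKM in ONC and 4.04 to 5.12 RPKM in TPEN. Adgre1, the gene of F4/80 and the lowest, had 0.0460 to 0.0550, 0.617 to 1.15 and 0.194 to 0.432 RPKM. The sum of the 12 markers in the table was 4.62 to 5.62, 60.7 to 64.5 and 26.6 to 27.8 RPKM, and none of the 12 was at 0 in every library. Cd44, Vim and S100a6 are expressed by such cells as well. The gate left out CD48-positive cells, and CD48 is a surface protein of leukocytes. The part of these cells in the results was not tested. Rod markers had a sum of 18349 to 19201, 16075 to 16304 and 17291 to 17414 RPKM, and RGC markers 364 to 374, 373 to 395 and 290 to 304 RPKM. Of 6 rod and 7 RGC markers tested, 0 were called in ONC/Ctrl by limma and 0 by voom, and at an unadjusted p below 0.05 in limma 1 rod marker was higher and 5 were lower, and 3 RGC markers were higher and 2 lower. RGC markers under the limit on the mean were taken from the fit with no limit. There Pou4f1, the lowest of them, was downregulated in ONC/Ctrl (log2 fold change -1.30, limma adjusted p = 0.0108). Its mean level was 0.571 RPKM in Ctrl and 0.183 RPKM in ONC. Rbpms (-0.51) and Slc17a6 (0.55) did not pass (limma adjusted p = 0.118 and 0.130), and Slc17a6 is named after its values were seen. The part of rods and RGCs in the results was not tested. Of 4 endothelial and pericyte markers tested, 0 were called in ONC/Ctrl by limma and 0 by voom, and at an unadjusted p below 0.05 in limma 1 (Kdr) was higher and 0 were lower. None of the 5 fibroblast markers listed was analysed here.

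**Figure D4:**
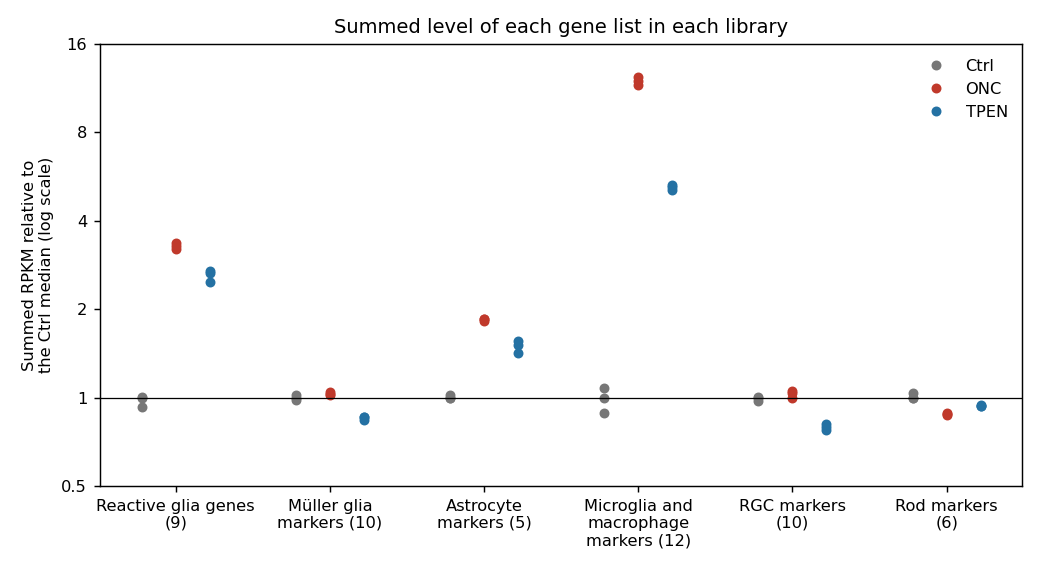
Summed RPKM of each gene list in each library relative to the median of Ctrl (y axis, log scale) for the 9 reactive glia genes and the markers of Müller glia, astrocytes, microglia and macrophages, RGCs and rods (x axis, with the number of genes in the table). The sum of the reactive glia genes rises from 24.1 to 26.1 RPKM in Ctrl to 82.8 to 86.9 RPKM in ONC. That of the Müller glia markers goes from 609 to 631 RPKM to 633 to 647 RPKM, with Apoe higher and Glul and Rlbp1 lower in ONC than in Ctrl.

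The genes whose levels followed those of a member most closely over the 9 libraries were sought among 12139 genes averaging 1 RPKM or more, by the root mean square distance of centered log2 levels. For Vim it was Gap43, a growth cone protein of regenerating axons, with a distance of 0.0846 and mean levels of 7.79 (Ctrl), 24.0 (ONC) and 19.6 RPKM (TPEN). The nearest to Nes was Mt2, a metallothionein that binds zinc, with a distance of 0.135 and means of 1.74, 14.0 and 10.4 RPKM. Cd44 was closest to Ahr (0.209), A2m to Mertk, a receptor for the uptake of dying cells (0.250), and Serpina3n to Gadd45b, a stress gene (0.288). The gene closest to S100a6 was Gm42674 (0.328), a predicted gene on the same chromosome and strand. These distances describe the same 9 libraries that separate by group, and genes that differ alike between the groups come out close.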

How the data were processed

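Cells sorted as RGCs from 3 groups of 3 mouse libraries were profiled by stranded mRNA sequencing with molecular identifiers. Per the submitters' processing notes, reads were trimmed with Trimmomatic 0.36 and mapped to GRCm38 (mm10), with STAR according to the study's methods. The counting program and annotation, and whether identifiers were collapsed or the strand used, are not given in the sources used here. The authors deposited RPKM values per gene and library, with the exon length. The table also holds p-values, FDRs and log2 fold changes of the authors' own comparisons, which were not used.

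RPKM times exon length gave whole reads per library for 100% of values (tolerance 0.01), with totals of 19946993 to 23109754. A floor of 3 reads equals 0.130 to 0.150 RPM and covers counting error only. Replicate libraries differed beyond sampling noise (mean chi-square per gene 2.30 to 5.32), so all 9 were kept.

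Groups were compared in R 4.3.3 with limma 3.58.1 (variance trend, Benjamini-Hochberg over all genes tested) on log2(RPKM + 0.1), over the 9 libraries, for the 13566 genes that averaged 0.5 RPKM or more. Calls required an adjusted p below 0.05 and a change of 1.5-fold or more. The added 0.1 RPKM makes fold changes of low genes smaller. Lcn2, A2m and Cyp1b1 come from the fit of all 15228 genes. Counts of tested genes in the other lists leave out genes averaging under 0.5 RPKM. Some listed genes passed this limit only through the crushed retinas, among them Osmr, Cd14, Tgfbi, Spp1 and Fn1. Counts of genes that rose in these lists therefore describe the genes and support nothing further. The script was tested on simulated data. Single values used exact permutation tests in Python 3.11.15.

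The members, lists and tests were chosen with earlier results of these data known. All members and Gfap were named. From each list came up to 4 called genes averaging 1 RPKM or more, those with the largest change in ONC/Ctrl. Where none was called, up to 2 with the highest mean were named. Of the Müller glia, microglia and macrophage, and RGC lists, the highest and lowest marker were named. Further markers named were Gnat1, Kdr, Aldh1l1 and Rbpms. The gene nearest to each member with an absolute log2 fold change of at least 1 in ONC/Ctrl was named too. Others are marked. ONC/Ctrl and TPEN/ONC share the ONC libraries. Alternatives were another limit on the mean or none, a pseudocount of 1 RPKM, quantile normalization, voom on whole reads, a fold of 2, a replicate block, only the libraries compared, and leaving out each library. Fits of Lcn2, A2m and Cyp1b1 that joined no limit with another choice were added after seeing the data.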

Additional observations from a re-analysis of the deposited data

How the results depend on the processing

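Among the 6 reactive glia genes tested, 5 were upregulated in ONC/Ctrl and in TPEN/Ctrl. Among genes averaging 1 RPKM or more the counts were 3 and 3, since fewer genes were tested. With no limit on the mean, 1 gene (Lcn2) was downregulated in TPEN/ONC and 1 in TPEN/Ctrl, against 0 and 0. Leaving out each library gave 5 to 5 genes upregulated in ONC/Ctrl, 4 to 5 in TPEN/Ctrl and 0 to 0 in every other count. The same-numbered libraries of the groups did not deviate together (correlations of -0.062 to 0.027, 0 of 9 pairs over 0.1). No pairing by number was seen, but a pairing with a small effect would not show in these correlations. The replicate block gave 5 upregulated genes in ONC/Ctrl and 5 in TPEN/Ctrl, and 608 of all genes upregulated in ONC/Ctrl. It changed no call of a reactive glia gene. With it Tgfb2 in ONC/Ctrl passed the adjusted p (limma adjusted p = 0.0364) but stayed under 1.5-fold.

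Small differences in TPEN/ONC changed sign. For Serpina3n the log2 fold change was 0.060 without ONC replicate 2 and 0.059 without TPEN replicate 1, in a range of -0.24 to 0.060 when leaving out each library. For A2m it was 0.17 without ONC replicate 2, 0.029 without ONC replicate 3, 0.030 without TPEN replicate 3 and 0.0028 with quantile normalization. For Cd44 it was -0.11 without ONC replicate 1 and -0.075 without TPEN replicate 1 (range -0.11 to 0.12), for Tgfb2 -0.038 without ONC replicate 1 (range -0.038 to 0.11), and for Cyp1b1 -0.021 without ONC replicate 2. The cause was not tested. Nes in TPEN/ONC passed with a pseudocount of 1 (limma adjusted p = 0.0402) and without Ctrl replicate 3 (0.0494), A2m in ONC/Ctrl did not pass with quantile normalization (0.0957), and Tgfb2 in ONC/Ctrl passed in voom (0.0114). Vim, Gfap and the ONC/Ctrl results of Nes, Serpina3n, Cd44, S100a6 and Lcn2 kept their direction and an adjusted p below 0.05 in every alternative run. The 1.5-fold of the call was not reached by Lcn2 in ONC/Ctrl with quantile normalization (0.52) or a pseudocount of 1 (0.29), by Lcn2 in TPEN/ONC (-0.50) and TPEN/Ctrl (-0.22) or A2m in ONC/Ctrl (0.29) with that pseudocount, or by Gfap in TPEN/ONC without TPEN replicate 3 (-0.57).

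Counts over all genes moved by over 1.5 times as follows. In ONC/Ctrl, 622 upregulated genes became 943 with no limit on the mean and 354 at a fold of 2, and 102 downregulated genes became 184 with quantile normalization, 31 with a pseudocount of 1 and 8 at a fold of 2. In TPEN/ONC, 111 upregulated genes became 39 and 19 with a pseudocount of 1 and a fold of 2, and 164 downregulated genes became 281 with no limit, 105 among genes averaging 1 RPKM or more and 89 at a fold of 2. In TPEN/Ctrl, 468 upregulated genes became 247 and 223 with a pseudocount of 1 and a fold of 2, and 62 downregulated genes became 102, 34 and 20 with quantile normalization, a pseudocount of 1 and a fold of 2. Serpina3n, A2m, S100a6 and Lcn2 each had 4 to 26 reads per Ctrl library.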
